A study of Mus musculus with 18 samples.

Results

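The genes described here encode the subunits of the mitochondrial respiratory chain and of ATP synthase, examined in lists of MYC-bound sites from mouse liver tumours. They were taken from RefSeq's gene table (GRCm38.p6, which underlies mm10) as protein-coding genes whose symbols start with Nduf followed by a, b, c, s or v and a number, or with Sdha to Sdhd, Uqcr, Cox4 to Cox8, Cycs, Cyc1 or Atp5. This gave 89 of 21883 protein-coding genes on the autosomes and sex chromosomes: 40 for complex I, 4 for complex II, 9 for complex III, 1 for cytochrome c, 18 for complex IV and 17 for complex V. Within the set the symbols chose the genes, not their peaks, but the set itself was chosen with earlier results of these data known. A gene was counted as bound in a library when the summit of a listed peak, the base at which the peak is highest, lay within 1 kb of either end of its span.

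MYC binding had been measured by chromatin immunoprecipitation and sequencing (ChIP-seq) of frozen liver tumours from FVB mice, with 3 MYC libraries and 3 input libraries for each of 3 Arid1a genotypes. All the mice carried LAP-tta, a tetracycline transactivator under a promoter active in liver cells, and TRE-MYC, a MYC transgene that is switched on when doxycycline is withdrawn. WT tumours had floxed Arid1a alleles and no Cre and came from mice about 55 days old. Het tumours had 1 floxed allele together with Alb-cre (Cre recombinase under the albumin promoter) at about 70 days, and Homo tumours had 2 floxed alleles with Alb-cre at about 100 days. Genotype, age and the presence of Cre therefore cannot be told apart. Arid1a encodes a DNA-binding part of the chromatin remodeller SWI/SNF, and the design asks whether MYC occupancy differs with its dose. The labels do not tie libraries to animals. The p-values below therefore cover the spread among libraries, and that spread may be technical. Peaks do not measure RNA, so neither the loss of Arid1a nor the tissue could be checked from them. Among marker genes, 0 of 6 immune, 0 of 6 endothelial or stellate and 0 of 4 cholangiocyte genes had a peak at an end. Of 6 hepatocyte genes 1 (Apoa1) had a peak, in 1 library. Over all protein-coding genes the share with a peak in at least 1 library was 14.9%, so these counts name no cell type.

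The respiratory chain passes electrons from NADH (complex I) and succinate (complex II) through complex III and cytochrome c to oxygen at complex IV, and the proton gradient that this builds drives ATP synthase (complex V). Most of the subunits are encoded in the nucleus, and the liver is rich in mitochondria. MYC is known as a regulator of mitochondrial biogenesis. It binds DNA as a dimer with MAX at E-boxes, of which CACGTG is the canonical form, and is found at many active CpG-rich promoters.

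The 9 peak lists differed greatly in length. The part of list length in the counts below was not tested. Replicates 1 to 3 of WT gave 92, 1567 and 4291 peaks. Those of Het gave 1713, 1869 and 378, and those of Homo 112, 51 and 303. Input depth, recovered from the peak values, ranged from 3.37 to 6.27 reads per kb over the libraries, and MYC depth from 7.80 to 15.2 reads per kb. Fold values below are the authors' own enrichment over background at the summit of each peak. They were used only to describe and rank peaks within a list.

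Respiratory chain genes were bound about as often as other genes. In at least 1 library, 20 of the 89 genes (22.5%) were bound at an end, where 14.9% of all protein-coding genes had one. In at least 2 libraries there were 7 of 89 (7.87%, exact Clopper-Pearson 95% interval 3.22% to 15.5%), beside 8.03% of all genes. In at least 3 libraries there were 3 of 89, beside 4.99% of all genes. The 7 recurrent genes were Atp5g2 in 4 libraries, Atp5md and Ndufa13 in 3, and Atp5e, Ndufb5, Ndufb6 and Ndufs1 in 2. The other 13 of the 20 had a peak in WT replicate 3 alone, the longest list. The same held for 1368 of the 3262 bound genes of any kind. Without WT replicate 3 or without Het replicate 2, 4 of the 89 genes were left in at least 2 libraries. The matrix of genes and libraries shows these peaks, together with 3 sites inside genes and away from their ends that the rule did not count and that are described below under Uqcrc1, Cox5a and Atp5d.

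**Figure D1:**
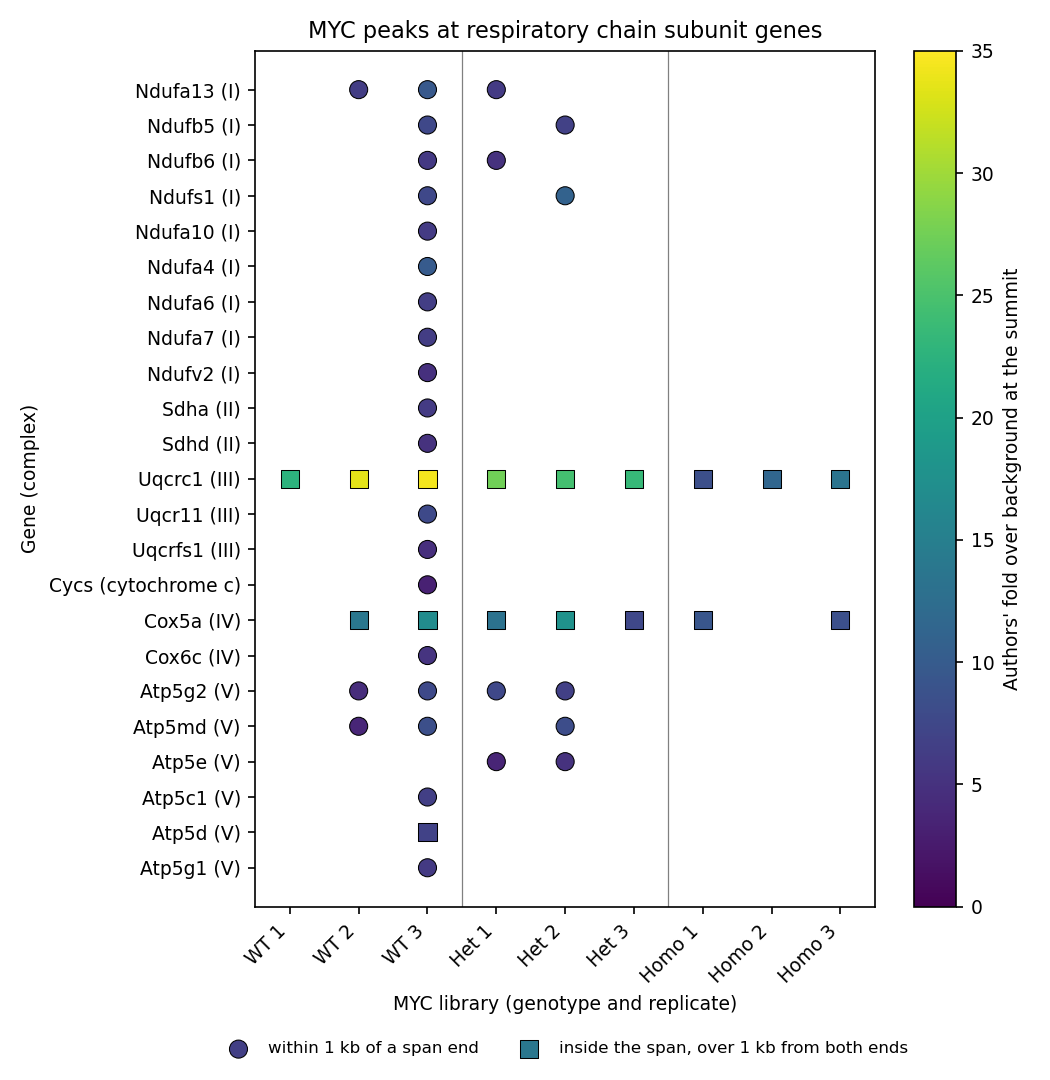
MYC peaks at each respiratory chain gene with a site (vertical axis, complex in brackets) in the 9 MYC libraries (horizontal axis, genotype and replicate). Colour gives the authors' fold, to be compared only within a column, circles are summits within 1 kb of a span end and squares are summits inside the span over 1 kb from both ends; Uqcrc1 has a square in 9 of 9 libraries, Cox5a in 7, and Atp5g2 has circles in 4.

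By library, no respiratory chain gene had a peak at an end in WT replicate 1, Het replicate 3 or the 3 Homo libraries. There were 3 of 89 in WT replicate 2 (3.37%, beside 4.86% of all genes) and 19 in WT replicate 3 (21.3%, exact 95% interval 13.4% to 31.3%, beside 14.1%). There were 4 in Het replicate 1 (4.49%, beside 5.58%) and 5 in Het replicate 2 (5.62%, beside 6.14%). WT and Het libraries overlapped, and in both genotypes at least 1 library had no bound member. A count of 0 of 89 allows a share of up to 4.06% by the exact interval, and the share of all genes was 0.0731% in WT replicate 1, 0.855% in Het replicate 3, and 0.324%, 0.0548% and 0.919% in the Homo libraries. The intervals cover counting error only.

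The plot of shares by library sets the respiratory chain beside other gene sets. Genes of the mitochondrial ribosome, which translates the subunits encoded in mitochondrial DNA, had peaks at 29.5% of 78 genes in WT replicate 3, 14.1% in Het replicate 1 and 10.3% in WT replicate 2 and Het replicate 2. Genes of the cytosolic ribosome reached 69.9% of 83 in WT replicate 3 and between 39.8% and 54.2% in WT replicate 2 and the first pair of Het libraries. In each of the 4 libraries with bound members, the respiratory chain share was the lowest of the 3 gene sets. It also lay below the share of genes with a CpG-rich promoter (GC of at least 55% and a CpG ratio of observed to expected of at least 0.65), which was 27.3% of 7182 in WT replicate 3. However, only 40 members were known to have such a promoter. Of these, 14 (35%, beside 28.7% of all CpG-rich genes) were bound in at least 1 library. In at least 2 libraries there were 4 (10%, beside 15.4%), so the direction differed between the 2 limits. The ribosomal lists were chosen with earlier results of these libraries known, and these differences were not tested.

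**Figure D2:**
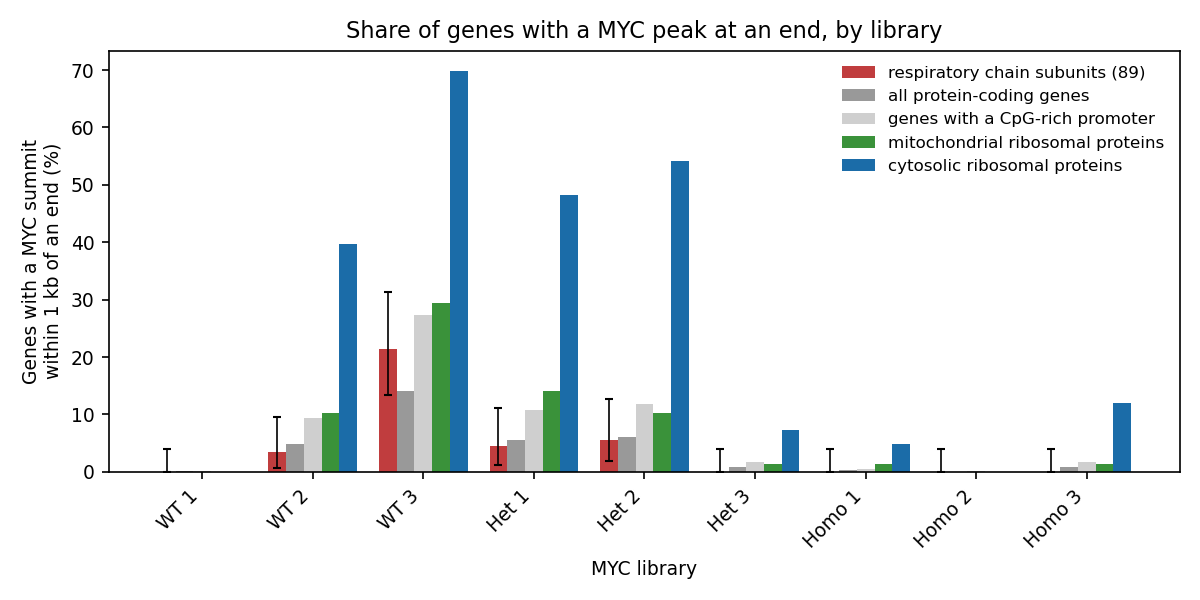
Share of genes with a MYC summit within 1 kb of a span end (vertical axis, percent) in each of the 9 MYC libraries (horizontal axis), for the respiratory chain genes, all protein-coding genes, genes with a CpG-rich promoter and the ribosomal protein genes of mitochondria and cytosol. Error bars are exact 95% intervals for the respiratory chain genes, whose bar in WT replicate 3 is 21.3% while cytosolic ribosomal protein genes stand at 69.9%.

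Complex I takes electrons from NADH. Of its 40 genes 9 (22.5%, beside 14.9% of all genes) were bound at an end in at least 1 library. In at least 2 there were 4 (10%, exact 95% interval 2.79% to 23.7%, beside 8.03%). Ndufa13, an accessory subunit of the membrane arm also known as a cell death regulator, had peaks of fold 6.24 in WT replicate 2, 9.64 in WT replicate 3 and 6.11 in Het replicate 1. The gene spans chr8:69894163-69902558 on the minus strand, and the 3 summits lay 675 to 722 bp beyond its end and at −1213 to −1260 bp from its transcription start (negative is upstream). They were closer to Tssk6, a kinase gene of the testis, at 238 to 285 bp. The Ndufa13 site is thus recurrent, but it belongs by distance to the neighbouring gene.

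The other recurrent sites of complex I also lay beside neighbours. Ndufs1 (chr1:63143592-63176822), the largest core subunit, which carries iron-sulfur clusters, had peaks of fold 7.64 in WT replicate 3 and 10.8 in Het replicate 2, at percentiles 64.2 and 88.0 of those lists. Both summits lay 431 to 485 bp outside the span and 422 to 476 bp from Eef1b2, a translation elongation factor gene. Ndufb5 (chr3:32737057-32751559), an accessory membrane-arm subunit, had a peak of fold 7.62 in WT replicate 3, 22 bp from Mrpl47 and at −286 bp from its own start. Its peak in Het replicate 2, of fold 6.73, lay at −106 bp from its start and 202 bp from Mrpl47. Ndufb6 (chr4:40270591-40279421), also a membrane-arm subunit, had peaks of fold 5.83 in WT replicate 3 and 4.97 in Het replicate 1. These sat past its far end, 9641 to 9668 bp from its start, and 61 to 88 bp from the ends of Topors and Smim27. When each peak was given only to its nearest gene end, the number of complex I genes with a peak in at least 2 libraries went from 4 to 0.

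The remaining 5 complex I genes had a peak in WT replicate 3 alone. Ndufa4, listed with complex I by its symbol although its protein is now placed in complex IV, had fold 9.85 there, but the summit was 69 bp from Phf14. Ndufa7 had fold 6.26 at a summit 77 bp from Rps28, a gene of the small ribosomal subunit. Ndufa6 (fold 6.34), Ndufa10 (6.04) and the core iron-sulfur subunit Ndufv2 (4.86) had summits 20 to 57 bp from their own starts with no other protein-coding gene end within 1 kb. The core subunits Ndufs3, Ndufs7, Ndufs8 and Ndufv1, which belong to the arm that takes up NADH and passes its electrons to ubiquinone, had no peak at an end in any library. The gene with no such peak that came closest to the limit was Ndufb10, with a summit 1892 bp away in WT replicate 3, while the bound gene nearest the limit was Ndufb6, at 811 to 838 bp.

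Complex II oxidises succinate and is also an enzyme of the citric acid cycle. Of its 4 genes 2 (50%, beside 14.9% of all genes) were bound at an end, both in WT replicate 3 alone. Sdha (the flavoprotein) had fold 6.09 there and Sdhd (a membrane anchor) fold 5.02, and Sdhb and Sdhc had no peak at an end. Both summits were nearer to a gene on the other side: Ccdc127 at 27 bp for Sdha and Timm8b, a mitochondrial import chaperone gene, at 22 bp for Sdhd. The summits lay 104 and 74 bp before the starts of Sdha and Sdhd. Cycs, which encodes the mobile electron carrier cytochrome c, had a peak of fold 3.21 in WT replicate 3, 100 bp before its start. It was the weakest respiratory chain peak of that library, at percentile 0.804 of the folds in that list.

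Complex III passes electrons from ubiquinol to cytochrome c. At gene ends, 2 of its 9 genes (22.2%, beside 14.9% of all genes) had a peak, both in WT replicate 3 alone. Uqcr11, a small accessory subunit, had fold 7.77 at 37 bp after its start. Uqcrfs1, the Rieske iron-sulfur protein, had fold 4.73 at 44 bp after its start. Uqcrc2, Cyc1, Uqcrb, Uqcrh, Uqcrq and Uqcr10 had none.

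Uqcrc1, a core protein on the matrix side of complex III, also had no peak at its ends, but it held the most constant site of the whole gene set. Its span is chr9:108936648-108949641 on the plus strand. A peak lay inside it in 9 of 9 libraries, with summits between 108943405 and 108943815, that is 6757 to 7167 bp after its start and 5826 to 6236 bp from its nearest end. Whether these bases are exonic or intronic was not determined here. Fold was 22.4 in WT replicate 1, 33.5 in WT replicate 2 and 34.4 in WT replicate 3. It was 27.4, 24.5 and 23.4 in Het replicates 1, 2 and 3, and 8.43, 11.5 and 13.4 in Homo replicates 1, 2 and 3. Ranked by fold within each list, the site was among the strongest of the WT and Het libraries: 6 of 92, 5 of 1567 and 2 of 4291 in WT, and 3, 9 and 4 of the 1713, 1869 and 378 peaks in Het. In the Homo libraries it ranked 23 of 112, 9 of 51 and 10 of 303. As percentiles of the list these Homo ranks were 80.4, 84.3 and 97.0. The percentile was 94.6 in WT replicate 1, below that of Homo replicate 3, and at least 99.2 in the other WT and Het libraries. Folds from different lists rest on different inputs and depths and were not compared between genotypes. The peaks were 549 to 856 bp wide, and the nearest other gene, Col7a1, lay 9771 to 10181 bp away. A site inside a gene and over 1 kb from both ends was present in all 9 libraries for 0.0274% of protein-coding genes (6 of 21883), in at least 7 for 0.142%, in at least 2 for 2.71% and in at least 1 for 5.29%. Of the 89 respiratory chain genes, Uqcrc1 and Cox5a had one in at least 7 libraries, and Atp5d in 1. WT replicate 1 and Homo replicate 2, the shortest lists, in which 0.0731% and 0.0548% of genes had a peak at an end, both held the Uqcrc1 site.

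Complex IV reduces oxygen to water. Of its 18 genes 1 (5.56%, beside 14.9% of all genes) was bound at a span end. This was Cox6c, a small accessory subunit, with fold 5.24 in WT replicate 3. The count of 0 of 18 in at least 2 libraries has an exact 95% interval of 0% to 18.5%, which includes the 8.03% of all genes. None of the genes for Cox4i1, Cox5b, Cox6a1, Cox6b1, Cox7a2, Cox7b, Cox7c or Cox8a, which make up most of the nuclear-encoded part of the enzyme in liver, had a peak at an end in any library.

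Cox5a, a nuclear-encoded subunit on the matrix side of complex IV, was the exception, and the span rule missed it. The RefSeq span is chr9:57517328-57532427, but the transcription start in the RefSeq promoter table is at 57521232, 3904 bp inside the span. A peak lay at that start in 7 of 9 libraries, with summits 50 to 80 bp before it. Fold was 13.9 in WT replicate 2 and 16.9 in WT replicate 3, with no peak listed in WT replicate 1. It was 13.1, 17.7 and 7.54 in Het replicates 1, 2 and 3, and 9.37 in Homo replicate 1 and 8.53 in Homo replicate 3, with no peak listed in Homo replicate 2. Peaks were thus present in all 3 genotypes, and the pair of libraries without one had the shortest lists. Ranked by fold within its list, the site was number 69 and 83 in WT replicates 2 and 3. It was number 71, 30 and 134 in Het replicates 1 to 3, and number 14 and 76 in Homo replicates 1 and 3. The libraries with a peak were 2 WT, 3 Het and 2 Homo, and the exact two-sided permutation test over libraries gave p = 1. A peak at a start in at least 7 libraries was found for 33 of 17491 genes in the promoter table (0.189%).

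The sequence before the Cox5a start is shown because it carries the most recurrent peak at a start among these genes. It gives the 250 bases up to the start, read 5′ to 3′ on the coding strand from RefSeq GRCm38.p6, and capitals mark the bases between the lowest and the highest summit of the 7 libraries.
Cox5a, chr9:57520982-57521231, plus strand: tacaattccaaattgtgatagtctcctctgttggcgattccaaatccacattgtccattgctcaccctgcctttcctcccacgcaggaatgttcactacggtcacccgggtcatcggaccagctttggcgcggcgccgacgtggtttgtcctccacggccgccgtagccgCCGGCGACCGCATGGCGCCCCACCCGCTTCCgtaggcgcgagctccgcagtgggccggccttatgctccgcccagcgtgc
With the first 50 transcribed bases the window had a GC content of 65.0% and 35 CpG dinucleotides, 1.14 times the number expected from its base composition. None of the 5 motifs searched, which are given below, was in it.

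Complex V makes ATP. Of its 17 genes 5 had a peak at an end, and 3 (17.6%, exact 95% interval 3.80% to 43.4%) had one in at least 2 libraries. Atp5g2 encodes subunit c, which forms the rotor ring in the membrane. It spans chr15:102662868-102671047 on the minus strand and was the respiratory chain gene bound at an end in the most libraries. Fold was 4.40 in WT replicate 2, 7.72 in WT replicate 3, 7.58 in Het replicate 1 and 6.65 in Het replicate 2, with no peak listed in WT replicate 1, Het replicate 3 or the Homo libraries. The 4 summits lay 103 to 189 bp after its start, and no other protein-coding gene end was within 1 kb. Subunit c has 3 genes with the same mature protein. Atp5g1 had a peak of fold 5.95 in WT replicate 3, 19 bp after its start, and Atp5g3 had none.

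Atp5e encodes the epsilon subunit of the central stalk. Its span is chr2:174461075-174464101 on the minus strand. It had a peak in Het replicates 1 and 2, of fold 3.69 and 5.02, at 196 and 204 bp after its start, again with no other gene end within 1 kb. Atp5e is the only respiratory chain gene that was bound in 2 Het libraries and no WT library, and its fold in Het replicate 1 was at percentile 1.87 of that list. Atp5md, a small membrane subunit linked to the pairing of ATP synthases, spans chr19:47083471-47090647 on the minus strand. Its peaks had fold 3.82 in WT replicate 2, 8.42 in WT replicate 3 and 8.09 in Het replicate 2. The summits lay 104 to 196 bp before its start and 16 to 108 bp from Pdcd11, a gene for ribosomal RNA processing, so they were nearer to that gene.

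The gamma subunit gene Atp5c1, the rotating shaft of the enzyme, had a peak of fold 6.45 in WT replicate 3, 36 bp after its start and 155 bp from Kin. Atp5d, the delta subunit of the central stalk, had a peak in WT replicate 3 (fold 6.92) 46 bp after a start that lies 3513 bp from the nearest end of its span, so the span rule did not count it. The genes of the catalytic head, Atp5a1 and Atp5b, had no peak at an end in any library.

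The upstream sequences of the other genes with a peak at their start in at least 2 libraries are shown for comparison with Cox5a. Each gives the 250 bases before the start, 5′ to 3′ on the coding strand, from RefSeq GRCm38.p6. Capitals mark the motifs found: the NRF1 motif in Atp5g2, CACGCG on either strand in Atp5md and CCGGAAG on the opposite strand in Atp5e. The Ndufb5 window held none.
Atp5g2, chr15:102671048-102671297, minus strand: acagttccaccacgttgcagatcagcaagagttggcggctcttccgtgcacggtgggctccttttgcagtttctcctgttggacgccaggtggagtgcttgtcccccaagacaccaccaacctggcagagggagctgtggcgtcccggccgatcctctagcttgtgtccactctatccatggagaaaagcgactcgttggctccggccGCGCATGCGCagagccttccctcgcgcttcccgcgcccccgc
Atp5md, chr19:47090648-47090897, minus strand: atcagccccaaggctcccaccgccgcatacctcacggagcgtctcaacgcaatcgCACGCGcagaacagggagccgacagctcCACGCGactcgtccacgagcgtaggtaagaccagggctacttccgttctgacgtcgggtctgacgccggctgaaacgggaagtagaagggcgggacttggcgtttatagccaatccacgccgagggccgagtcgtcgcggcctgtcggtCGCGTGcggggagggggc
Atp5e, chr2:174464102-174464351, minus strand: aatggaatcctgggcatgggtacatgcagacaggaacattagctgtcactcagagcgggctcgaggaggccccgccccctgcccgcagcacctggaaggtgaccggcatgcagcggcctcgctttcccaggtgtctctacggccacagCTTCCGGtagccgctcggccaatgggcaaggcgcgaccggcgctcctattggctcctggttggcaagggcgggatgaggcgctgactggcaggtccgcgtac
Ndufb5, chr3:32736813-32737062, plus strand: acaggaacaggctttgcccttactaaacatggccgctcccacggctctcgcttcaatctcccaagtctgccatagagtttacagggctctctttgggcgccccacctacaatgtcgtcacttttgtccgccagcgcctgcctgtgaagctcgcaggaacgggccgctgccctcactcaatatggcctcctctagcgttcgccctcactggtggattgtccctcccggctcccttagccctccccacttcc

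Set side by side, complexes I and V held all of the genes bound at an end in at least 2 libraries. They had 4 of 40 (10%) and 3 of 17 (17.6%), beside 8.03% of all genes. Complexes II, III and IV and cytochrome c had 0 of 4, 0 of 9, 0 of 18 and 0 of 1. The exact intervals overlap widely, so these counts do not separate the complexes. At transcription starts, for the 71 genes with an entry in the promoter table, the order changed: 1 of 34 genes of complex I, 1 of 13 of complex IV and 3 of 15 of complex V had a peak in at least 2 libraries. In all, 5 of 71 did (Cox5a, Atp5g2, Atp5md, Atp5e and Ndufb5), beside 8.71% of all 17491 genes with an entry, and 18 of 71 had a peak at a start in at least 1 library, beside 16.1%. The split between complexes therefore depended on whether gene ends or starts were used.

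**Figure D3:**
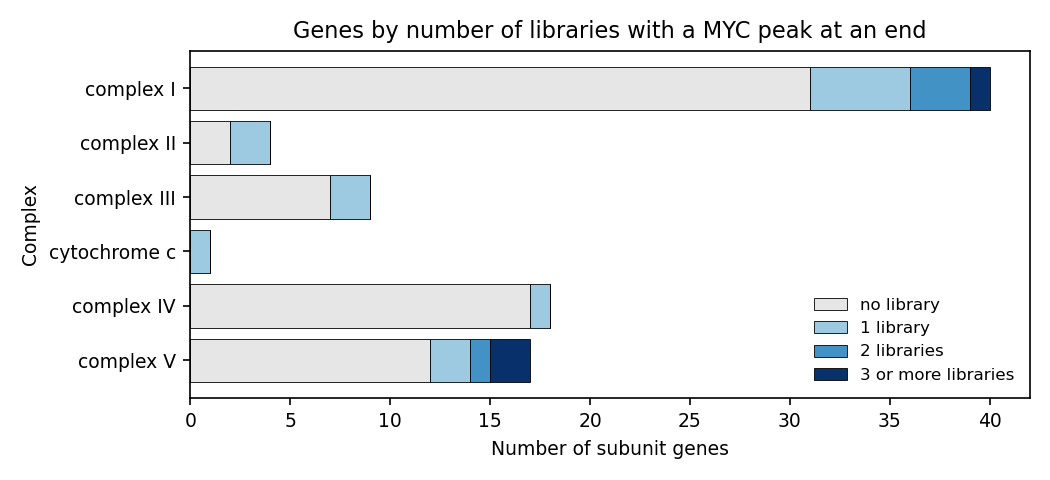
Number of genes of each complex (horizontal axis, vertical axis names the complex) by the number of the 9 MYC libraries with a summit within 1 kb of a span end (shade). Complex I has 31 of 40 genes and complex IV 17 of 18 genes with a peak in no library.

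Fold was compared between complexes within a list. WT replicate 3 was the 1 list with peaks for all of them. There the 9 complex I peaks had folds of 4.86 to 9.85 (median 6.34) and the 4 complex V peaks 5.95 to 8.42 (median 7.08). The 2 peaks of complex II had folds of 5.02 and 6.09, and the 2 of complex III folds of 4.73 and 7.77. Cox6c (5.24) and Cycs (3.21) gave the single values of complex IV and cytochrome c. The highest complex I value, 9.85, is that of Ndufa4, whose protein is now placed in complex IV. Counted there, it would give complex IV folds of 5.24 and 9.85. The ranges of complexes I, II, III and V overlapped. In 3 other lists complexes I and V could be set side by side. In WT replicate 2 the 1 complex I peak had fold 6.24 and the 2 of complex V a median of 4.11. In Het replicate 1 the medians were 5.54 (2 peaks) and 5.63 (2 peaks), and in Het replicate 2 they were 8.79 (2 peaks) and 6.65 (3 peaks). Neither complex was the higher one in every list.

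Among the 21 core subunits, those that carry redox groups, the catalytic head or the main structural proteins of each complex, 6 (28.6%, beside 14.9% of all genes) were bound at an end in at least 1 library: Ndufs1, Ndufv2, Sdha, Sdhd, Uqcrfs1 and Cycs. In at least 2 there was 1, Ndufs1 (4.76%, beside 8.03%). Cox5a and Uqcrc1, whose sites lie away from the span ends, are also core subunits. Of 11 listed genes that are isoforms of other tissues, extra copies or not true subunits, such as Cox4i2, Cox7a1 and Ndufa4l2, 0 had a peak. Without these, 7 of 78 genes (8.97%) had a peak in at least 2 libraries.

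The positions of respiratory chain peaks relative to starts and neighbouring genes are described here. For the counts of peaks and of bound genes, the same shares over all peaks at gene ends are not given. These counts therefore do not set the members apart from other genes. Of the 28 peaks at gene ends with a known start, 22 lay within 300 bp of it and 15 lay upstream. The plot of summit positions shows Cox5a summits in a narrow band before the start and those of Atp5g2 and Atp5e after it. Of the 20 genes bound at an end, 10 had the end of another protein-coding gene within 1 kb of the summit, and for 15 of the 31 peaks that other gene was the nearer one. For 8 of the 20 genes this was so in every library. With each peak given only to its nearest gene end, 2 of 89 genes (2.25%, beside 6.83% of all genes) had a peak in at least 2 libraries: Atp5g2 and Atp5e.

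**Figure D4:**
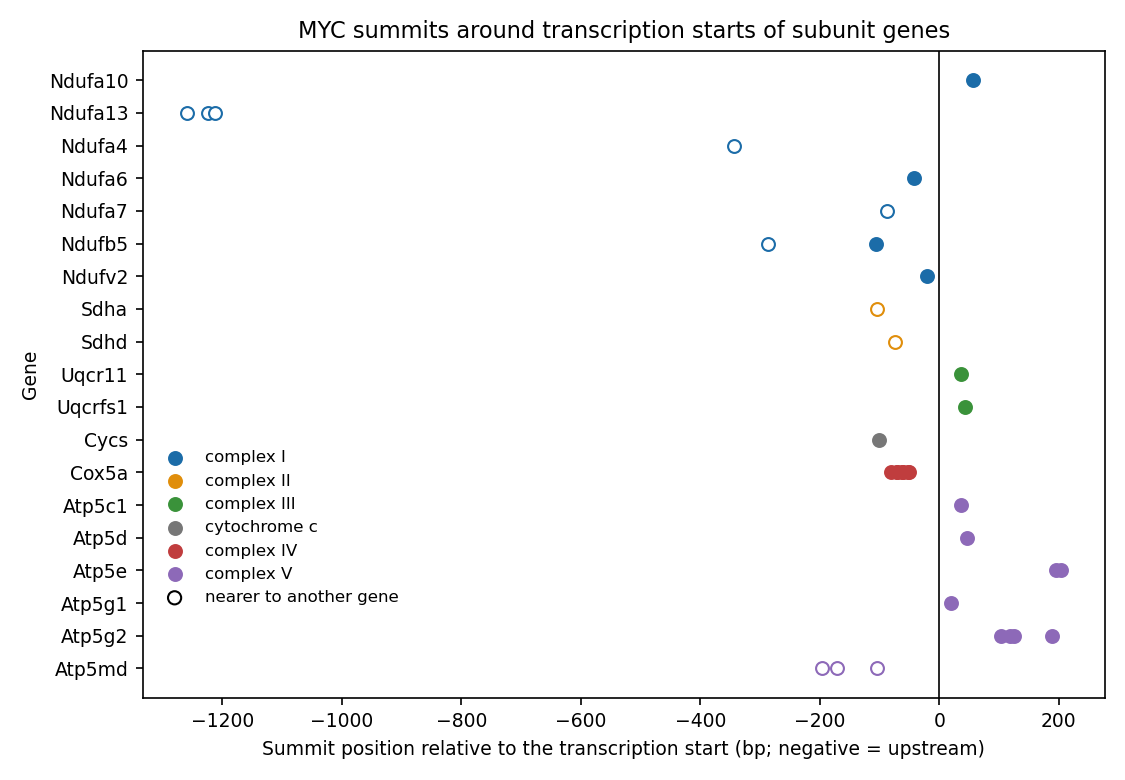
Position of MYC summits relative to the transcription start (horizontal axis, bp, negative is upstream) for respiratory chain genes with a known start (vertical axis), 1 point per library and peak, coloured by complex. Ndufb6, with summits 9641 and 9668 bp from its start, and Uqcrc1, with summits 6757 to 7167 bp from its start, are not drawn. Open points are nearer to another protein-coding gene; the 3 open points of Ndufa13 lie at −1260 to −1213 bp, and the 7 Cox5a points at −80 to −50 bp.

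At gene ends, most respiratory chain peaks ranked below the median of their lists. The 31 peaks had folds of 3.21 to 10.8 (median 6.24) and between 26 and 85 reads at the summit (median 46, for the 29 peaks whose reads could be recovered). Their percentile of fold within their own list ranged from 0.804 to 88.0 with a median of 39.1, 21 of 31 were below the median of their list, and 0 of 31 were above the 90th percentile. Of these peaks 19 came from WT replicate 3. The median percentile of the members was 8.17 in WT replicate 2, 39.6 in WT replicate 3, 26.6 in Het replicate 1 and 42.1 in Het replicate 2. The median of all peaks at gene ends in the 4 libraries concerned was between percentile 43.9 and 48.4. Thinning to the lowest input depth with 1 limit on p, an alternative chosen after seeing the data, left fewer member peaks. Their pooled median was 65.4, still ranked within the full lists. That value is thus not a rank among thinned peaks and cannot be set beside the medians of all peaks at gene ends. Of the 3 sites outside the span rule, Cox5a was at percentiles 95.7, 98.1, 95.9 and 98.4 in those 4 libraries, and the lowest percentile of Uqcrc1 in them was 99.6. Atp5d was at percentile 51.7 in WT replicate 3, below Ndufa4 (84.6) and others of that list.

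**Figure D5:**
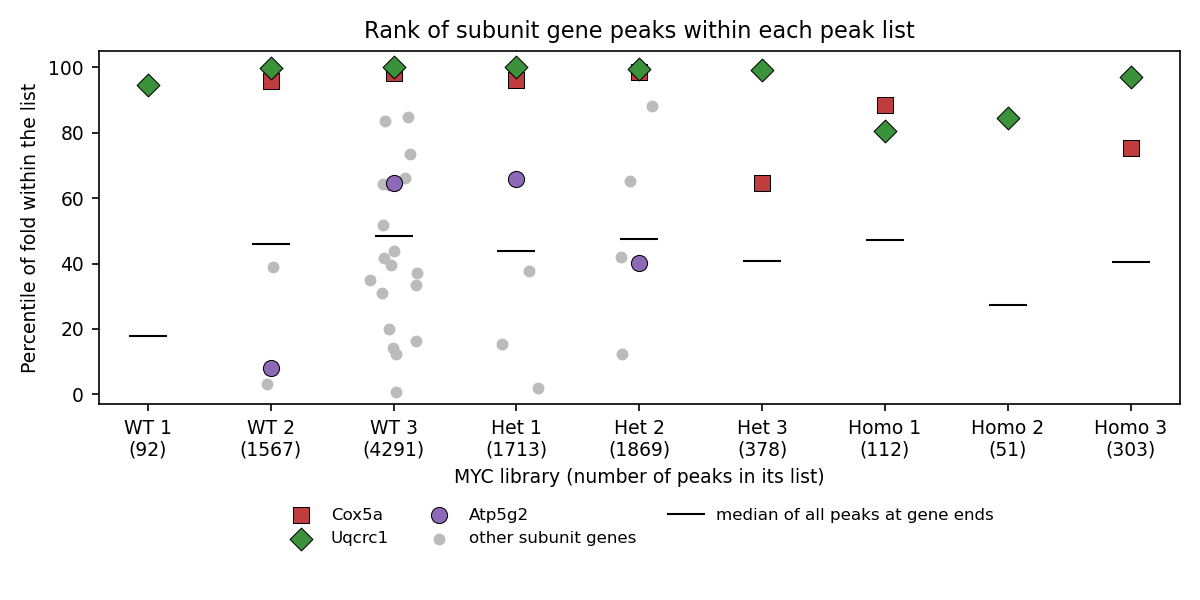
Percentile of the authors' fold of each respiratory chain peak among all peaks of its list (vertical axis, percent) in the 9 MYC libraries (horizontal axis, number of peaks in brackets). Diamonds (Uqcrc1) and squares (Cox5a) lie above the black bars, the medians of all peaks at gene ends, in every library that has them, while Atp5g2 (circles) ranges from percentile 8.17 to 65.7.

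By genotype, 19 of the 89 genes (21.3%, beside 14.3% of all genes) were bound at an end in at least 1 WT library, and 7 (7.87%, beside 7.86%) in at least 1 Het library. For 3 genes (3.37%, beside 4.66%) a peak was present in at least 2 of 3 WT libraries: Atp5g2, Atp5md and Ndufa13. In Het there were 2 (2.25%, beside 3.98%), Atp5g2 and Atp5e, and in Homo 0, beside 0.238%. The same 3 genes were bound in at least 2 WT and 0 Homo libraries (beside 3.70% of all genes), and the same 2 in at least 2 Het and 0 Homo libraries (beside 3.04%). At least 2 Het and 0 WT libraries were bound for 1 gene, Atp5e (1.12%, beside 0.0868%), and at least 2 WT and 0 Het libraries for 0 genes (beside 0.649%). These counts rest on single libraries and weak peaks. Without WT replicate 2, or without WT replicate 3, the WT count was 0, and without Het replicate 1, or without Het replicate 2, the Het count was 0. Atp5e was not counted for 2 Het libraries once a −log10 q of at least 5, a fold of at least 5 or a −log10 p of at least 10 was asked for.

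No respiratory chain gene passed the genotype test. In the two-sided exact permutation test over the 9 libraries, with Benjamini-Hochberg adjustment over the 3262 genes with a peak, 0 members passed an adjusted p of 0.05 and 0 had an unadjusted p under 0.05. The same 2 counts were 0 over all 3262 genes. Leaving out each library in turn, 0 members and 0 genes passed after adjustment. Without Het replicate 3, 1 member had an unadjusted p under 0.05 (0.0357, exact permutation, the smallest possible), among 19 of all genes, and without WT replicate 1 there were 0 members among 201 genes. The lowest p among respiratory chain genes was 0.25 for Atp5e (exact permutation, adjusted p = 1), followed by 0.357 for Atp5g2, and 0.679 for Atp5md and Ndufa13. The smallest p that the design allows is 0.0357 over 3 genotypes and 0.1 for 3 against 3 libraries. A gene bound in 1 library, as 13 of the 20 bound members were, gets the same p whichever library that is. A gene bound in 2 libraries cannot go below the 0.25 of Atp5e (exact permutation). For most members the test therefore could not have found a difference between genotypes, and no conclusion on genotype is drawn from it.

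The Homo libraries had no respiratory chain peak at a span end, and their lists were short, with 112, 51 and 303 peaks. Of all genes, 1.03% were bound at an end in at least 1 Homo library. The part of list length in this was not tested.

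The canonical E-box was about as frequent before these genes as elsewhere. Windows of 250 bases before to 50 after each start, from the RefSeq promoter table, were searched on both strands for CACGTG (the canonical E-box), CACGCG (a non-canonical E-box), the NRF1 motif (a palindrome, in capitals in the Atp5g2 sequence above), CCGGAAG (bound by ETS factors such as GABPA) and AAGATGGC (bound by YY1). No motif contains another, and a window could hold several. CACGTG was in 6 of 71 windows (8.45%, beside 8.91% of all 17491 genes and 13.5% of CpG-rich ones), and CACGCG in 13 (18.3%, beside 13.7% and 27.9%). In the same order, the NRF1 motif was in 5 (7.04%, beside 1.47% and 2.72%), CCGGAAG in 17 (23.9%, beside 12.9% and 21.5%) and AAGATGGC in 10 (14.1%, beside 3.57% and 5.53%). Beside CpG-rich genes, the share of CACGCG was thus lower and that of CCGGAAG close. That comparison is not like for like, since 31 of the 71 members lacked a CpG-rich promoter. NRF1, GABPA and YY1 are known regulators of respiratory genes. Of all genes with CACGTG, 20.0% were bound at an end in at least 2 libraries, beside 7.24% of those without it. The other motifs gave the same direction over all genes, with 21.1% and 6.36% for CACGCG, 17.1% and 8.25% for the NRF1 motif and 14.4% and 7.49% for CCGGAAG.

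The 6 respiratory chain windows with CACGTG are shown because they allow bound and unbound E-boxes to be compared. Of these, 2 had a peak at an end, Atp5g1 and Ndufa7, both in WT replicate 3. The share of all genes with CACGTG bound in at least 1 library is not given, so this count does not set the members apart. The summit was 58 bp from the E-box in Atp5g1 and 15 bp in Ndufa7. Up to 12 bases on each side are printed, 5′ to 3′ on the coding strand from RefSeq GRCm38.p6, with the E-box in capitals.
Atp5g1, chr11:96075658-96075687, minus strand: agggactccgaaCACGTGggtgggggagct
Ndufa7, chr17:33824488-33824517, plus strand: gcggagaggagtCACGTGagcaggggatgc
Atp5g3, chr2:73911547-73911576, minus strand: acccctgcctggCACGTGcaaggagcgagg
Atp5l, chr9:44920872-44920901, minus strand: ctcaggattcttCACGTGttatcgcgcctc
Atp5pb, chr3:105959495-105959513, minus strand: aCACGTGgtgtacctctgc
Ndufv1, chr19:4012907-4012936, minus strand: agcagagggcgaCACGTGagcctggtttac
The E-boxes began at −44, −72, −238, −147, −249 and −169 bp from the start in this order, in Ndufa7 from the nearer of its listed starts. CACGTG was in 0 of the 6 windows of genes bound at an end in at least 2 libraries, and Cox5a had none either. Thus 0 of the 6 members with CACGTG were bound in at least 2 libraries, beside 20.0% of all genes with it. These counts are too small to set the members apart from other genes. AAGATGGC was in 0 of 18 windows of members bound in 1 library or more, and in 10 of 53 windows of unbound members. Over all genes, the shares bound in 2 libraries or more were 12.2% with AAGATGGC and 8.24% without it. These shares use another limit and are taken by motif, so they cannot be set beside the 18 and 53 windows. At the limit of 2 libraries, 0 of the 10 members with AAGATGGC were bound. That is too few genes to differ from 12.2%. A match is a description of the sequence and not a binding site.

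Other genes of oxidative metabolism gave a mixed picture, to be read beside the 8.03% of all genes bound at an end in at least 2 libraries. Of 12 regulators of respiratory genes, 6 had one: the coactivator Pprc1 in 5 libraries, 1 of them Homo, with folds of 6.26 to 11.1; Esrra, a nuclear receptor, and Yy1 in 4; Tfam, which packages mitochondrial DNA, in 3; and Ppargc1b and Tfb2m in 2. Assembly factors were bound for 5 of 23 genes of complex IV, namely Pet117 in 5 libraries, Cmc1 in 4 (fold 9.27 to 15.0), Coa7 in 3, and Cox18 and Sco2 in 2. For complex I there were 3 of 15 assembly genes (Tmem186 in 3 libraries, Foxred1 and Ndufaf4 in 2). For complexes II and III there was 1 of 10, Ttc19 in 4 libraries. For complex V and ADP exchange there were 2 of 6, Slc25a5 (the ADP/ATP carrier of growing cells) and Tmem70.

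Ubiquinone, the lipid carrier between the early complexes and complex III, is made by the Coq proteins. Of 17 genes for its synthesis and for electron input, 3 had a peak in at least 2 libraries: Coq2, which joins the head and the tail of the molecule, in 4 with folds up to 19.4, and Coq8a and Dhodh in 2. Of 17 genes of the citric acid cycle, 1 did, Suclg2 in 3 libraries. The subunit genes themselves (7.87%) thus had a lower share than the lists of assembly factors of complexes I and IV (20% and 21.7%), of ubiquinone genes (17.6%) and of regulators (50%), and a share similar to the citric acid cycle (5.88%). The differences between lists were not tested, and the smaller lists rest on few genes. The mitochondrial ribosome had 12 of 78 (15.4%) and the cytosolic ribosome 50 of 83 (60.2%).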

How the data were processed

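MYC binding was measured by ChIP-seq in 9 MYC libraries, each with its own peak list, and 9 input libraries, of which no separate file was used here. Per the submitters' processing notes, MACS2 2.0.10.20131216, Bowtie2 2.2.3, HOMER and Picard were used with mm10. The sources used here do not give the calling threshold. The deposited lists have no header and the layout that MACS2 writes. Each peak has the authors' fold over background (a ratio) and the authors' −log10 q and −log10 p. The deposited score, a whole number, was not used. The last deposited column places the summit relative to the start of the peak.

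Groups and replicate numbers came from the sample titles. Gene spans and promoter windows came from RefSeq tables of GRCm38.p6. The summit was placed at the peak start plus its offset, and a gene was bound when a summit lay within 1 kb of an end of its span. The RefSeq table gave 18 matching symbols that are not protein-coding, mostly pseudogenes, and these were left out. A promoter entry was found for 71 of the 89 genes. Shares carry exact Clopper-Pearson 95% intervals. Summit reads and input depth were solved from fold and p together, taking the fold as scaled reads plus 1 over background plus 1 and p as a Poisson tail, with a tolerance of 0.01 of a read. This gave a whole number of reads for 10314 of 10376 peaks (99.4%).

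Presence per library was tested gene by gene over 3 genotypes with an exact permutation test on all 3262 bound genes, with Benjamini-Hochberg adjustment. The scripts used Python 3.11.15, numpy 2.4.6, pandas 2.3.3, scipy 1.17.1 and matplotlib 3.10.9 and were tested on simulated data. The members and the gene lists were chosen with earlier results of these data known. Genes were named when bound in at least 3 libraries, when among the 2 most often bound of a complex, when bound in at least 2 libraries of 1 genotype and 0 of another, when core subunits whatever their values, and, for each other list, when among its 4 most often bound genes with at least 2 libraries. Other named genes, among them all those bound in WT replicate 3 alone, Atp5d, Atp5g3 and the smaller subunits, were chosen after their values were seen, as were the sites inside genes. An item named by this rule is not reported here. Symbols of the lists that did not match the table were left out, Coa1 among them.

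Alternatives were windows of 250 bp and 5 kb, limits on q, fold and p, the nearest gene end only, transcription starts only, equal list lengths of 51 peaks, another membership of the gene set, each library left out and the replicate number as a block. Thinning to the lowest input depth, and counting ends or starts together, were added after seeing the data.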

Additional observations from a re-analysis of the deposited data

How the results depend on the processing

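The main counts of genes with a peak in at least 2 libraries were 7 of 89, with 4 for complex I, 3 for complex V and 0 for the rest. With a window of 250 bp there were 3 members (3.37%, beside 5.004% of all genes) and 0 of complex I. With a window of 5 kb there were 12 (13.5%, beside 11.05%), with 1 of complex III and 3 of complex IV, 7 in at least 2 WT libraries, 5 in at least 2 Het and 1 in at least 2 Homo libraries. In that window 6 were bound in at least 2 WT and 0 Homo libraries, 4 in at least 2 Het and 0 Homo, and 1 in at least 2 WT and 0 Het. With only the nearest gene end there were 2 members, 0 of complex I, and 1 in at least 2 WT libraries, with or without the condition of 0 Homo libraries. With transcription starts only, complex I had 1, complex IV 1 and Homo 1. With ends or starts together, chosen after seeing the data, complex IV and Homo each had 1, and the members were 8 (8.99%, beside 8.80%).

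A −log10 q of at least 5 left 1 member in at least 2 Het libraries, also with 0 Homo, and 0 with 0 WT. A fold of at least 5 and a −log10 p of at least 10 each left 1 in WT and 1 in Het, also with 0 Homo, and 0 in Het with 0 WT. With the 51 highest peaks of each list, 0 members were left in each of these counts (0.146% of all genes in at least 2 libraries), and no percentile could be computed. Thinned to the lowest input depth, chosen after seeing the data, there were 4 members (4.49%, beside 3.83%), 2 of complex I, 0 in WT and 1 in Het, the same with 0 Homo, and 0 in Het with 0 WT. The median percentile of fold was then 65.4 in place of 39.1, among fewer and stronger peaks. Those percentiles were taken within the full lists, so 65.4 is not a rank among the thinned peaks.

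Leaving out each library in turn gave 4 to 7 members, 1 to 4 of complex I, 2 to 3 of complex V, 0 to 3 in WT and 0 to 2 in Het, the same ranges with 0 Homo, 0 to 1 for WT with 0 Het and for Het with 0 WT, and a median percentile of 37.4 to 39.9. The lowest counts came without WT replicate 3 (4 members, 1 of complex I), without Het replicate 2 (4 members, 2 of complex I), and, for a single genotype, without WT replicate 2, WT replicate 3, Het replicate 1 or Het replicate 2 (0). With both WT replicate 1 and Homo replicate 2 removed, and with the other membership rules, no count moved by over 1.5 times. The cause of these differences was not tested.

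With the replicate number as a block, 0 members passed the genotype test and the lowest p was 0.333 (exact permutation within blocks). Libraries with the same number had correlations of −0.276 to 0.317, and 4 of 9 correlated best with a library of their own number, so the numbers were not taken to pair the samples.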
